A study of Mus musculus with 8 samples.

Results

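The miR-17-92 and miR-106b-25 clusters are 2 sets of microRNA hairpins, each cut from a single primary transcript, and they were followed here in small RNA sequencing of mouse hearts. Members were all deposited rows named mir-17, mir-18a, mir-19a, mir-20a, mir-19b-1 and mir-92a-1 for the first cluster, and mir-106b, mir-93 and mir-25 for the second. These 9 names took up 12 of the 764 hairpin entries in the tables, since mir-18a and mir-92a-1 were also listed under a human entry and mir-93 under a rat entry. They gave 15 mature miRNAs with a count, 9 from miR-17-92 and 6 from miR-106b-25, of 685 in all, and all 15 passed the filter on low counts, which left 564 to be tested. No counts were listed for the 3p arm of mir-20a and the 5p arms of mir-19a and mir-19b-1.

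The hearts came from wild-type C57Bl6/J mice of 4 to 6 weeks with no treatment, 4 female and 4 male, and each heart was extracted on its own and gave 1 library of RNA enriched for small molecules. The comparison the design implies is female against male. Each library held between 29900500 and 38894987 counts. The cardiac muscle miRNAs fixed as markers (the mir-208a, mir-499, mir-133a and mir-1a hairpins, 5 mature miRNAs) were above 0 in every heart and summed to 5650 to 9580 CPM in female hearts and 4305 to 7412 CPM in male hearts. Rows of other names were not in this sum. Among these, miR-1-1-3p averaged 22314 CPM in female hearts and 24985 CPM in male hearts, and miR-133c-5p 7099 and 5587 CPM. CPM here is the usual library-scaled level, each count divided by the library's mature counts after TMM scaling, which corrects for differences in composition between libraries. Female replicate 3 had a TMM factor of 1.41, against 0.846 to 1.06 in the other hearts, and male replicate 2 had the highest sum of erythroid markers, at 1174 CPM against 54.5 to 423 CPM.

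A miRNA hairpin is cut from its primary transcript by Drosha and then by Dicer into a duplex, of which a 5p or a 3p strand is loaded into Argonaute. The loaded strand finds its target mRNAs mainly through its seed, the bases 2 to 8 from its 5′ end, so miRNAs with the same seed share most predicted targets. The miR-17-92 cluster is known as an oncogenic, MYC-driven locus that is required for normal development of the heart and lungs in mouse embryos and has been linked to cardiomyocyte proliferation. The miR-106b-25 cluster is its paralog in the host gene Mcm7, a subunit of the replicative DNA helicase, and its members carry seeds that also occur in miR-17-92.

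In the mouse genome (GRCm38.p6), the 6 hairpins of miR-17-92 lie on the plus strand of chromosome 14. The mir-17 hairpin starts at 115043671 and the mir-92a-1 hairpin ends at 115044506, and all 6 are in an exon of the single annotated transcript of the non-coding gene Mir17hg. The 3 hairpins of miR-106b-25 lie on the minus strand of chromosome 5, from mir-106b, which ends at 138165818, to mir-25, which starts at 138165321. Each of the 3 falls in an intron of 2 annotated transcripts of Mcm7, and mir-93 and mir-25 also fall in an exon of 1 further Mcm7 transcript. All 9 names matched RefSeq by symbol or synonym.

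The mature sequences below are from RefSeq (GRCm38.p6). They are those of the arm with most counts of each hairpin, with the lower arms miR-106b-5p and miR-18a-5p added. They are shown because they set which members of the 2 clusters are alike. The seed is in capitals. The first set has the seed of miR-17, which both clusters carry.
miR-17-5p: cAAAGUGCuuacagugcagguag
miR-20a-5p: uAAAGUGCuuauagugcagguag
miR-106b-5p: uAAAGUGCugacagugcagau
miR-93-5p: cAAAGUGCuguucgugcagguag

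The second set has the seed of miR-25 and miR-92, which both clusters also carry.
miR-92a-3p: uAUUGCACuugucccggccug
miR-25-3p: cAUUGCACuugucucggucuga

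The miR-19 seed occurs in miR-17-92 only among these 2 clusters.
miR-19a-3p: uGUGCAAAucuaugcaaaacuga
miR-19b-3p: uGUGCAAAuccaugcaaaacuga

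The last set has seeds that no other arm shown here shares.
miR-18a-5p: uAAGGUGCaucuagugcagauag
miR-18a-3p: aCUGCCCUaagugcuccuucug
miR-106b-3p: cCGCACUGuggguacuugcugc

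Counted from the 5′ end, miR-20a-5p differs from miR-17-5p by the 2 changes C1U and C12U. miR-93-5p differs from miR-17-5p at 4 positions outside the seed (U10G, A11U, C12U and A13C). miR-19a-3p and miR-19b-3p differ by U11C alone. Over the 21 bases of miR-92a-3p, miR-25-3p differs at 3 (U1C, C14U and C18U) and is 1 base longer.

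The members of a single transcript were found at very unequal mature levels. In miR-17-92, the last hairpin, mir-92a-1, held between 83.3% and 93.4% of the cluster's mature counts in each heart. Its 3p arm, miR-92a-1-3p, a miRNA known in mice as a brake on vessel growth, was at 1213, 955.1, 779.3 and 1455 CPM in the female hearts and at 1449, 1536, 1211 and 1348 CPM in the male hearts. It ranked 56th of the 564 miRNAs tested by mean CPM. The lowest values were those of 2 female hearts, and the groups overlapped.

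The next members were more than 10 times lower. miR-20a-5p, a miR-17 family member that targets E2F transcription factors, had 68.1, 73.5, 62.8 and 49.4 CPM in female hearts and 46.7, 86.3, 61.9 and 70.5 CPM in male hearts. miR-17-5p had 34.9, 36.7, 43.2 and 26.6 CPM in female hearts and 27.7, 48.5, 37.7 and 36.4 CPM in male hearts. Male replicate 2 was the highest heart for both, and miR-20a-5p was above miR-17-5p in 8 of 8 hearts, at 1.45 to 2.00 times its counts.

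The miR-19 pair was close to these. miR-19b-3p, summed over its 2 identical genomic copies, was at 22.4, 40.0, 43.7 and 28.4 CPM in female hearts and at 27.1, 32.3, 27.5 and 26.4 CPM in male hearts. miR-19a-3p was at 10.4, 32.8, 22.6 and 19.4 CPM in female hearts and at 12.0, 24.4, 18.1 and 14.8 CPM in male hearts. miR-19a-3p spread most among the members above 10 CPM, with its highest heart, female replicate 2, at 3.16 times its lowest, female replicate 1.

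The remaining arms of miR-17-92 were near the limit of the tables. miR-17-3p averaged 2.34 ± 1.39 CPM in female hearts and 1.96 ± 1.13 CPM in male hearts (SD, n = 4 each). The 2 arms of mir-18a were lower still: miR-18a-3p averaged 0.909 ± 0.390 CPM in female hearts and 1.17 ± 0.603 CPM in male hearts (SD, n = 4 each). miR-18a-5p, the arm with the seed closest to that of miR-17, held 109 counts in all, was listed at 0 in male replicate 4 and had no listed entry in female replicates 1 and 4. Of the 280 counts of miR-18a-3p, 232 were on the human entry, which held 3p reads alone, and 48 on the mouse entry. miR-92a-1-5p held 116 counts and was listed at 0 in female replicate 4. No reads unique to an entry were listed with a count of 1 to 9 in any table, so a listed 0 does not bound these miRNAs from above as a true count of 0 would.

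The second cluster had the same shape. Its last hairpin, mir-25, held between 83.2% and 90.3% of the cluster's counts. miR-25-3p, which has been reported to act on calcium handling and on Hand2 in the mouse heart, was at 1188, 1028, 1013 and 1452 CPM in female hearts and at 1304, 2228, 1252 and 1563 CPM in male hearts. It ranked 53rd of 564, with miR-92a-1-3p at 56th, and male replicate 2 stood above all other hearts.

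miR-93-5p, a miR-17 family member, was at 98.1, 88.8, 115.6 and 68.8 CPM in female hearts and at 65.0, 146.5, 85.7 and 93.2 CPM in male hearts. miR-106b-3p was at 84.1, 65.9, 63.6 and 75.4 CPM in female hearts and at 79.8, 107.5, 70.1 and 69.0 CPM in male hearts. The arm for which that hairpin is better known, miR-106b-5p, was lower, at 13.0, 16.6, 22.5 and 10.9 CPM in female hearts and at 13.0, 27.2, 13.8 and 19.8 CPM in male hearts. Male replicate 2 was the highest heart for all 3. The minor arms miR-93-3p and miR-25-5p stayed between 0.734 and 2.62 CPM in every heart. Of the 481 counts of miR-93-3p, 137 were on the mouse entry.

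**Figure D1:**
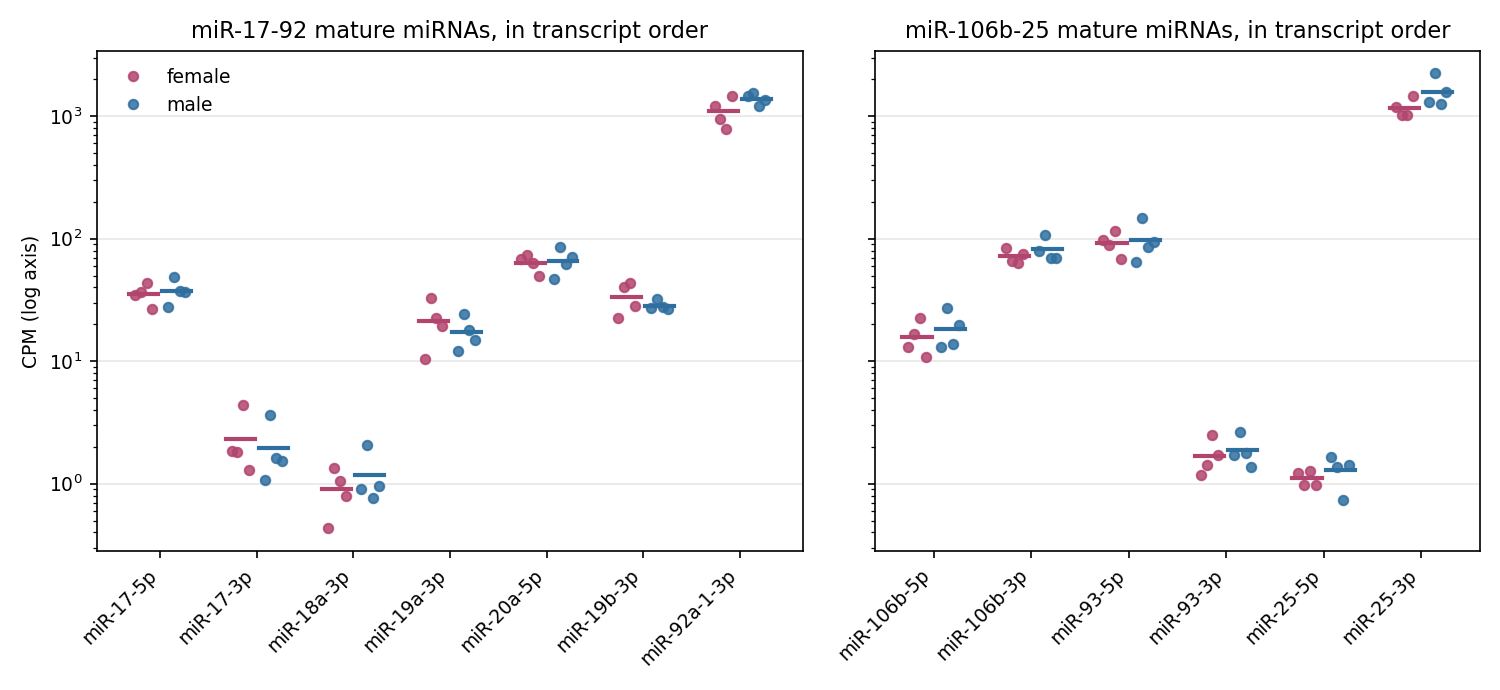
Levels of 13 member miRNAs in CPM on a log axis, with a point per heart (female left of male) and a bar at the mean of each sex (n = 4); miR-18a-5p and miR-92a-1-5p, with no counts in some hearts, are not drawn. miR-92a-1-3p and miR-25-3p, between 779.3 and 2228 CPM, stand above every other member, the highest of which reached 146.5 CPM.

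Since the members were measured in the same heart, each was set against the next lower one in its cluster by a two-sided exact sign-flip permutation test of the difference in log2 CPM (smallest possible p 0.0078, n = 8 hearts). Of 13 such neighbour pairs, 9 differed at an adjusted p under 0.05. In miR-17-92, miR-92a-1-3p lay 4.25 log2 units above miR-20a-5p, with an SD of 0.48 over hearts (adjusted p = 0.0127, exact test, 8 of 8 hearts). In miR-106b-25, miR-25-3p lay 3.86 ± 0.42 log2 units above miR-93-5p (SD; adjusted p = 0.0127, exact test, 8 of 8 hearts). The order could not be told beyond the spread for miR-17-5p over miR-19b-3p (5 of 8 hearts, adjusted p = 0.118, exact test) and for miR-93-5p over miR-106b-3p (6 of 8 hearts, adjusted p = 0.0739, exact test). The same held at the low end for miR-93-3p over miR-25-5p (adjusted p = 0.0508, exact test) and for miR-92a-1-5p over miR-18a-5p (adjusted p = 0.375, exact test). miR-19b-3p entered as the sum of mir-19b-1 and mir-19b-2, of which only mir-19b-1 lies in miR-17-92. The mir-19b-1 entry alone held 4226 counts, against 5328 for miR-19a-3p. The place of miR-19b-3p in the order holds for the sum and was not tested for mir-19b-1 alone. Small RNA libraries take up sequences unequally, so these are differences in reads between miRNAs, and the part of ligation and amplification in them was not tested.

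The inequality itself differed from heart to heart. Counts of miR-92a-1-3p were 18.0 to 54.8 times those of miR-17-5p, with the lowest ratio in female replicate 3 and the highest in female replicate 4. Counts of miR-25-3p were 8.76 to 21.1 times those of miR-93-5p, with the lowest and the highest ratio in the same hearts. Between the clusters, the members with the same seed were closer. With the human entry of mir-92a-1 counted, miR-25-3p held 0.900 to 1.45 times the counts of miR-92a-1-3p. miR-93-5p held 2.27 to 3.02 times those of miR-17-5p.

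Part of the miR-92a-1-3p count rests on how reads of its 2 genomic copies were assigned. The mature sequence also arises from mir-92a-2, in the paralogous miR-106a-363 cluster on chromosome X. The hairpins, written here from the first mature base to the hairpin's end (RefSeq, GRCm38.p6; plus strand of chromosome 14 and minus strand of chromosome X), share 21 bases and differ from base 22 on, which is in capitals.
mir-92a-1: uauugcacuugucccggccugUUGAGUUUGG
mir-92a-2: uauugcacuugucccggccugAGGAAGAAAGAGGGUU

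Reads that the tables list as unique to a copy were mostly assigned to the copy on chromosome 14. Of the unique reads on the mouse entries of the 2 copies, 92.2% ± 1.15 in female hearts and 92.2% ± 0.480 in male hearts were assigned to mir-92a-1 (SD, n = 4 each; range over hearts 90.7% to 93.5%). Over the entries of all species this share was 90.6% ± 1.66 in female hearts and 90.0% ± 2.60 in male hearts (SD, range 86.1% to 92.6%). Shared reads had the values that an even division between copies would leave. In the 212 cases of a copy pair in a library whose exact mature reads were all shared, the counts of the copies differed by 0 in 102, by 1 in 110 and by more in 0. With both copies summed, miR-92a-3p was at 1780, 1429, 1182 and 2154 CPM in female hearts and at 2141, 2249, 1847 and 1954 CPM in male hearts. The human entry of mir-92a-1 supplied 39.4% to 44.9% of the miR-92a-1-3p counts. For mir-19b-1 and mir-19b-2, 0 of 8454 reads were unique to a copy, so their sum cannot be split between the 2 clusters.

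The other members of the paralogous cluster were scarce. Of the 9 hairpins in the related list (the miR-106a-363 cluster and the further carriers of the miR-25/92 seed mir-92b, mir-32 and mir-367), 7 had mature counts. mir-106a had 11 counts and mir-20b 53 counts over all 8 hearts, against 9708 for miR-17-5p and 17132 for miR-20a-5p. miR-363-3p had 232 counts and was listed at 0 in 2 female hearts. miR-32-5p, another carrier of the miR-25/92 seed, averaged 16.4 ± 12.7 CPM in female hearts and 17.9 ± 6.05 CPM in male hearts (SD, n = 4 each). Of the 6 related miRNAs tested, 0 passed the sex comparison with edgeR, and 0 had an unadjusted p under 0.05.

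The hairpins differed in which arm they gave. mir-17 and mir-93 gave mainly the 5p arm, with 90.8% to 96.2% and 97.4% to 98.8% of their mature counts, and mir-20a was listed with 5p reads alone. mir-25 and mir-92a-1 gave at least 99.87% 3p reads in every heart, and mir-19a and mir-19b 3p reads alone. mir-106b went against the other 3 hairpins with the miR-17 seed on their 5p arm. Its 3p arm held 73.9% to 87.4% of the counts, and its 5p share was 13.4%, 20.1%, 26.1% and 12.6% in female hearts and 14.0%, 20.2%, 16.4% and 22.3% in male hearts. For mir-18a, with both entries summed, the 5p share was 0% in the 3 hearts with no 5p count and 29.7% to 38.5% in the other hearts. On the mouse entry alone the order of the arms turned, with 109 counts on 5p and 48 on 3p and more 5p than 3p counts in 5 of the 6 hearts listing it.

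**Figure D2:**
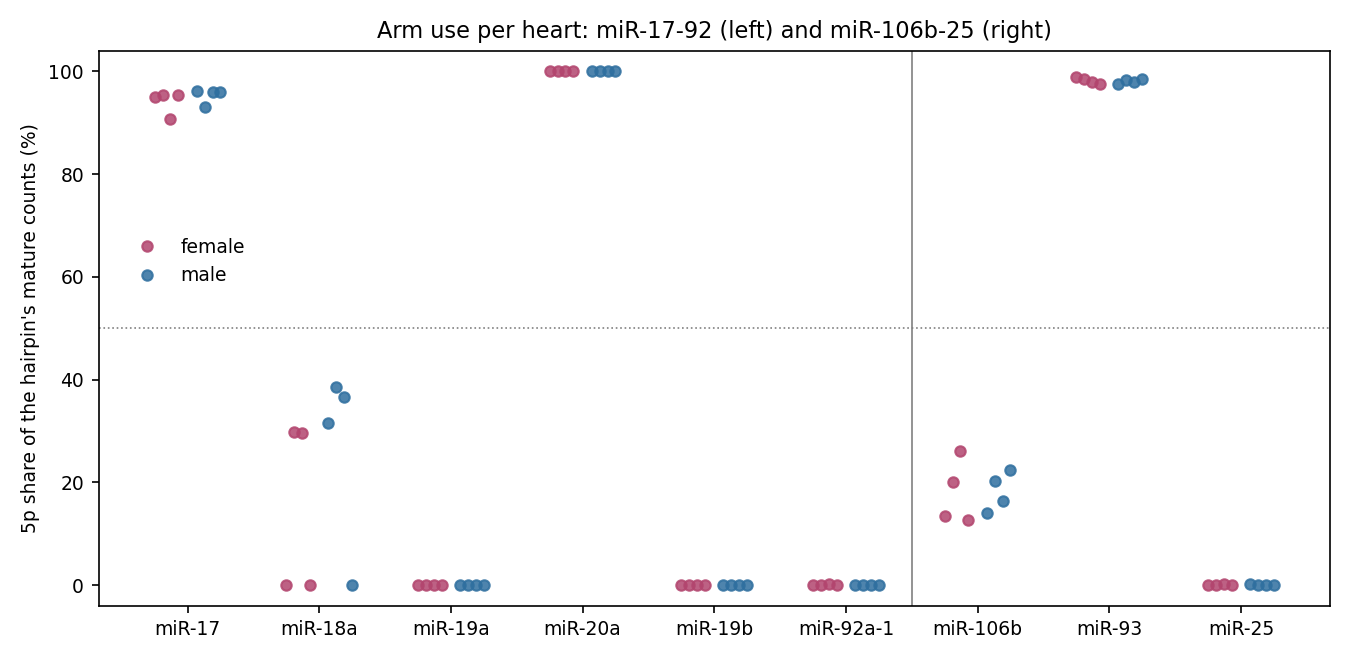
Share of each hairpin's mature counts on the 5p arm in percent, with a point per heart, female left of male, and the hairpins of miR-17-92 left of the vertical line. mir-17, mir-20a and mir-93 sit at 90.8% or above and mir-106b between 12.6% and 26.1%.

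Arm use did not pass the sex comparison for any member. The log2 ratio of 5p to 3p counts was tested with limma over 115 hairpins with both arms listed, of which 6 were members (mir-17, mir-18a, mir-92a-1, mir-106b, mir-93 and mir-25). None of the 6 was called, and the share called over all 115 was 0%; at an unadjusted p under 0.05 it was 0 of 6 members and 3.48% of all. For mir-106b the log2 ratio was -2.24 ± 0.61 in female hearts and -2.19 ± 0.37 in male hearts (SD, n = 4 each), a difference of -0.054 (SE 0.35, adjusted p = 0.936, limma). For mir-17 it was 4.05 ± 0.50 in female hearts and 4.37 ± 0.43 in male hearts (SD, n = 4 each), a difference of -0.32 (SE 0.33, adjusted p = 0.806, limma).

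Reads that matched the listed mature sequence exactly were a minority for most members. They made up 29.0% ± 1.59 of miR-92a-1-3p counts in female hearts and 28.3% ± 1.78 in male hearts (SD, n = 4 each). On the mouse entry of mir-92a-1 alone the exact share was 0.842% to 1.64%. The exact share of miR-25-3p was 47.0% ± 2.80 in female hearts and 49.2% ± 5.24 in male hearts, and that of miR-20a-5p 58.8% ± 2.05 in female hearts and 57.6% ± 4.18 in male hearts (SD, n = 4 each). Among the 9 dominant arms, that of miR-19a-3p had the lowest mean, with 2.06% to 11.3%. Of the minor arms, miR-25-5p had 0 exact reads among 311 counts. For none of the 9 dominant arms did this share pass the comparison of the sexes (all adjusted p at 0.804 or above, two-sided exact permutation test over 70 arrangements, smallest possible p 0.0286).

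No member passed the comparison of female with male hearts. With edgeR's quasi-likelihood test and Benjamini-Hochberg adjustment over the 564 miRNAs tested, 0 of 15 members were called, and the share called over all miRNAs was 0%. At an unadjusted p under 0.05, 0 of 15 members and 4.96% of all miRNAs passed. With DESeq2, 0 of 15 members and 0.532% of all miRNAs were called. The groups overlapped for all 15 members, while they did not overlap for 2.84% of all miRNAs. The smallest p of a member was that of miR-25-3p, which averaged 1170 ± 204 CPM in female hearts and 1587 ± 449 CPM in male hearts (SD, n = 4 each), a log2 fold change of -0.44 (SE 0.22, unadjusted p = 0.0729, adjusted p = 0.806). miR-92a-1-3p followed, with 1100.7 ± 296 CPM in female hearts and 1386 ± 140 CPM in male hearts (SD, n = 4 each), a log2 fold change of -0.33 (SE 0.21, adjusted p = 0.806).

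In direction, 11 of the 15 members had a lower fitted level in female hearts, against 57.3% of all miRNAs tested, and the median of their log2 fold changes was -0.14 while that of all miRNAs was -0.052. Without male replicate 2, 12 of 15 had the higher level in female hearts, with a median of 0.18. With library sizes alone in place of TMM, which moved the median of all miRNAs by over 0.1 to 0.13, 10 of 15 were higher in female hearts. miR-19a-3p (log2 fold change 0.30, SE 0.33) and miR-19b-3p (0.25, SE 0.23) had the opposite sign to the other dominant arms under TMM scaling (with library sizes alone miR-17-5p, miR-20a-5p and miR-93-5p were positive too), with an adjusted p of 0.844 for miR-19a-3p and 0.831 for miR-19b-3p in edgeR's test. In whole hearts, fewer cells of a type and less of a miRNA per cell cannot be told apart.

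The clusters as wholes were also measured as shares of mature counts. Such shares scale by library size alone, without the TMM correction for composition. Reads that mir-92a-1 and mir-19b-1 share with their copies were taken as listed. miR-17-92 made up 0.117%, 0.119%, 0.132% and 0.152% in female hearts and 0.131%, 0.180%, 0.142% and 0.126% in male hearts. The difference of the means, 0.130% ± 0.0160 in female hearts and 0.145% ± 0.0243 in male hearts (SD, n = 4 each), was within the spread (p = 0.429, two-sided exact permutation test). miR-106b-25 made up 0.121%, 0.127%, 0.172% and 0.156% in female hearts and 0.124%, 0.263%, 0.150% and 0.148% in male hearts. Here too the means, 0.144% ± 0.0241 in female hearts and 0.171% ± 0.0622 in male hearts (SD, n = 4 each), did not differ beyond the spread (p = 0.629, two-sided exact permutation test). Male replicate 2 held the highest share of both clusters.

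With shared reads assigned as listed and the human entry of mir-92a-1 included, the ratio of the 2 clusters within a heart was close to even. It depends on that entry. Over all hearts miR-92a-1-3p held 319885 counts with the human entry and 184340 on the mouse entry, against 356761 for miR-25-3p. The ratio also depends on the assignment, since mir-92a-1 and mir-19b-1 share reads with copies outside the clusters. mir-92a-1 held 65.6% to 69.0% of the counts of the 2 mir-92a copies. How even the ratio is under another division of shared reads was not tested. The log2 ratio of miR-106b-25 to miR-17-92 was 0.048, 0.099, 0.38 and 0.040 in female hearts and -0.082, 0.55, 0.081 and 0.23 in male hearts. It averaged 0.14 ± 0.16 in female hearts and 0.20 ± 0.27 in male hearts (SD, n = 4 each; p = 0.686, two-sided exact permutation test). Over these 3 measures the adjusted p was 0.686 for each.

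Covariation over the 8 hearts was taken for the dominant arm of each of the 9 hairpins, as Pearson r and Spearman rho of log2 CPM. For mir-18a this was the 3p arm, which was dominant only with the human entry included, and with mouse entries alone its 8 pairs were left out. None of the 36 pairs passed at an adjusted p under 0.05 with either measure (exact permutation over the 40320 pairings); by r, 8 pairs had an unadjusted p under 0.05. The median r was 0.451 for the 15 pairs within miR-17-92, 0.391 for the 3 pairs within miR-106b-25 and 0.314 for the 18 pairs between the clusters. Over all pairs of the 564 miRNAs tested it was -0.000615, and over pairs of miRNAs at 10 CPM or more 0.0284. All these pairs share the same 8 libraries and their scaling. By r, 4 pairs each passed with library sizes alone, with mouse entries alone and without female replicate 3, and 1 pair without male replicate 3. By rho, 5 pairs passed with library sizes alone, 3 with mouse entries alone, and 0 without female replicate 3 or without male replicate 3. Without male replicate 2 the median fell to -0.255 within miR-106b-25 and to -0.124 between the clusters.

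Members of 1 transcript differed in sign under TMM scaling. miR-92a-1-3p had a negative r with miR-17-5p (-0.349), miR-19a-3p (-0.406), miR-20a-5p (-0.141) and miR-19b-3p (-0.706). All come from its own transcript, though miR-19b-3p also includes the mir-19b-2 copy on chromosome X. The adjusted p was 0.590, 0.590, 0.798 and 0.224 in that order (exact permutation). The r values depended on the scaling and on female replicate 3. With library sizes alone they were 0.0366, 0.0682, -0.0144 and -0.105, and without female replicate 3 they were 0.0298, -0.0504, -0.133 and -0.142. With miR-25-3p of the other cluster it had r = 0.796 and rho = 0.905 (adjusted p = 0.140 for r and 0.0821 for rho, exact permutation; r = 0.741 without the 2 hearts farthest from the median of miR-92a-1-3p). The negative r with miR-19b-3p rested on 2 hearts: without female replicates 2 and 3 it was 0.757.

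The highest r of the 36 pairs joined the clusters. miR-17-5p and miR-93-5p had r = 0.949 and rho = 0.738 (adjusted p = 0.0705 for r and 0.275 for rho, exact permutation), and r was 0.914 without the 2 hearts farthest from the median of miR-17-5p. Set out by seed in place of transcript, a grouping chosen after the values were seen, the 5 pairs with the same seed had r from 0.796 to 0.949 with a median of 0.857. Besides those above these were miR-20a-5p with miR-93-5p (0.861), miR-17-5p with miR-20a-5p (0.857) and miR-19a-3p with miR-19b-3p (0.842). The 31 pairs with different seeds had r from -0.706 to 0.794 with a median of 0.324. Without 2 hearts, taken in the same way, their r ran from -0.948 to 0.804. All pairs that passed by r under any of the alternatives above had the same seed: miR-17-5p with miR-93-5p in 4 of them, and miR-17-5p with miR-20a-5p, miR-20a-5p with miR-93-5p and miR-19a-3p with miR-19b-3p in 3 each. The pairs that passed by rho were not set out by seed.

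An r of at least 0.796 was found in 2.35% of all pairs tested and in 3.94% of pairs at 10 CPM or more. The same-seed median was between 0.822 and 0.946 under every other scaling, counting unit and left-out heart tried. That of the other pairs ran from -0.136 to 0.647. Each alternative reuses the hearts and the pairs from which the grouping was chosen. These ranges show how far the medians depend on the processing and are not an independent test of the grouping. Same-seed members also resemble each other in the rest of their sequence, as shown above, and a part of read assignment between them in these values was not tested. The pairs highest among different seeds were miR-106b-3p with miR-25-3p (0.794), both from miR-106b-25, and miR-18a-3p with miR-19a-3p (0.748), both from miR-17-92.

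**Figure D3:**
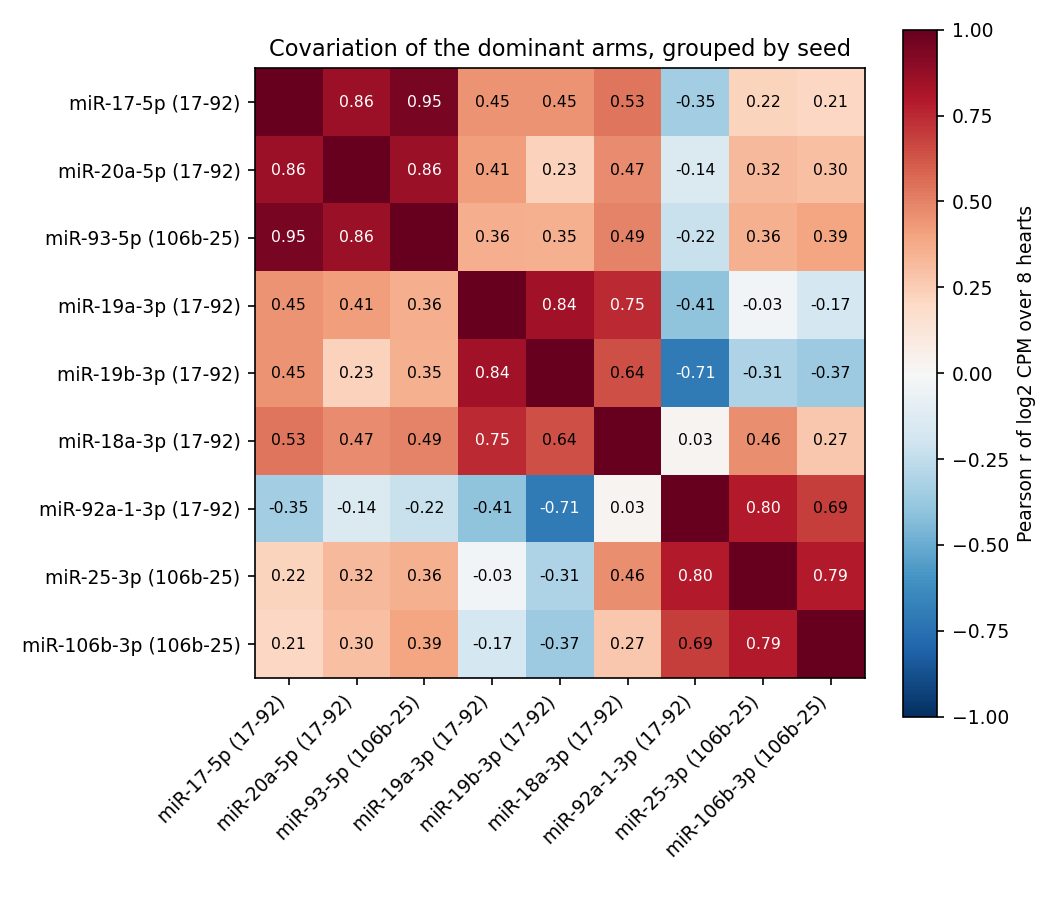
Pearson r of log2 CPM over 8 hearts for the dominant arms, with the cluster of each in brackets and arms of the same seed side by side. The blocks of miR-17-5p, miR-20a-5p and miR-93-5p, of the miR-19 pair and of miR-92a-1-3p with miR-25-3p hold the 5 same-seed pairs, from 0.796 to 0.949.

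The profiles show which hearts carry these values. In the miR-17 seed group, male replicate 2 was the highest heart and female replicate 4 and male replicate 1 were the lowest for all 3 members. In the miR-19 pair, female replicate 1 was the lowest heart for both. In the miR-25/92 seed pair, male replicate 2 was again the highest for both members, while female replicate 3 was the lowest.

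**Figure D4:**
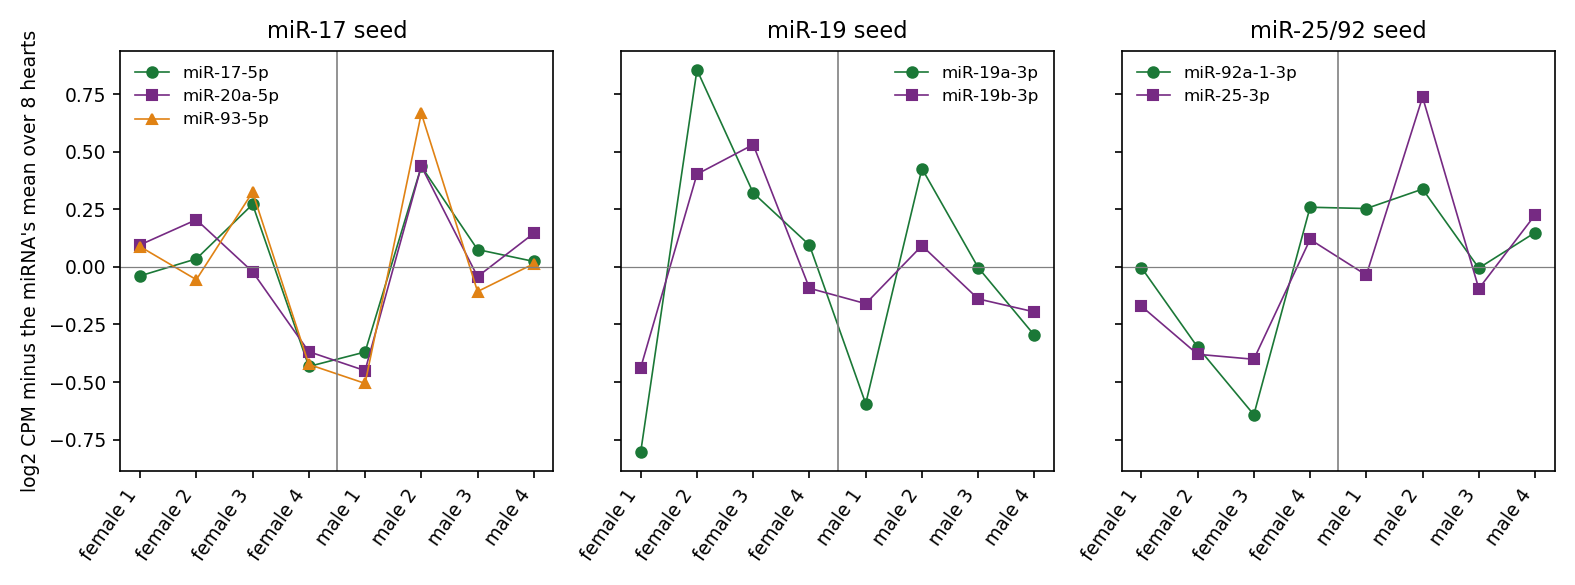
Log2 CPM of each member minus its mean over the 8 hearts, female hearts left of male hearts, in 3 panels by seed; hearts have no order within a sex and the lines only join points of the same miRNA. Members from different clusters follow each other in the left and right panels.

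For miR-17-92, the 3 miRNAs outside these clusters with the highest r are known from blood cells, and none passed after adjustment. Over 543 miRNAs compared with the mean standardised log2 CPM of the cluster's dominant arms (n = 8 hearts), the highest r were those of miR-142a-3p (0.950), miR-142b-5p (0.949) and miR-144-3p (0.924). Each arm weighs the same in this mean. The arm of mir-92a-1, with 83.3% to 93.4% of the cluster's counts, thus weighs as much as miR-18a-3p at a mean of 1.04 CPM. miR-142 is known as a miRNA of leukocytes and miR-144 of erythroid cells. miR-142a and miR-142b come from opposite strands of the same locus, and strand use in the counting is unknown here, so their reads cannot be told apart. The adjusted p was 0.189, 0.189 and 0.224 (exact permutation), and r without the 2 hearts farthest from the median was 0.854, 0.839 and 0.757. For miR-106b-25 they were miR-7a-5p (0.877), miR-142a-5p (0.819) and miR-3061-5p (0.786), each with an adjusted p of 0.999 (exact permutation), and r fell to 0.573, 0.326 and -0.227 without 2 hearts.

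The marker lists give the levels beside which these values stand. The erythroid markers (2 of 2 hairpins, 3 mature miRNAs) summed to 54.5 to 213 CPM in female hearts and 154 to 1174 CPM in male hearts. The leukocyte markers (4 of 4 hairpins, 8 mature miRNAs) summed to 299.5 to 327 CPM in female hearts and 283 to 412 CPM in male hearts. None of these markers was at 0 in a heart, and male replicate 2 held the highest sum of both lists, as it held the highest score of both clusters. The r of the miR-17-92 score with the log2 sum was 0.748 for erythroid and 0.660 for leukocyte markers, and that of the miR-106b-25 score was 0.719 for erythroid and 0.817 for leukocyte markers. The adjusted p over 12 such relations was 0.242 for each of these 4 (exact permutation), and rho for miR-106b-25 was 0.167 with both lists. For miR-17-92, rho was 0.714 with erythroid and 0.286 with leukocyte markers. The cardiac muscle markers had the same adjusted p with the miR-17-92 score, 0.242, at r = 0.624, and the largest rho of the 12 relations, 0.857 (unadjusted p = 0.0107, exact permutation), while their r with the miR-106b-25 score was -0.0159. The cardiac muscle sum leaves out the rows named mir-1-1 and mir-133c. The part of blood cells and of cardiac muscle in the members' levels was not tested.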

How the data were processed

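Small RNA of 8 mouse hearts, 4 female and 4 male, was sequenced with 1 library per heart; each heart was extracted separately, per the labels' protocols. The deposited tables hold whole read counts per hairpin entry of 3 species, split per the file headers into mature 5', mature 3' and other reads. The submitters' processing notes name STAR and mm10, without a version or role; for the counting tool, its filters and its use of strand, nothing is stated. Entries of the same name and arm were summed over species, and numbered copies were summed where under 50% of reads on mouse entries were unique to 1 copy. Other reads on a hairpin were left out.

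Sexes were compared with edgeR 4.0.16 (quasi-likelihood, TMM, filterByExpr with a minimum count of 10; R 4.3.3), adjusted by Benjamini-Hochberg over 564 miRNAs. CPM values were computed from the deposited counts with these factors, and log2 CPM with a prior count of 2. Arm ratios, with a pseudocount of 0.5 and a mean of at least 10 counts on each arm, were tested with limma 3.58.1. DESeq2 1.42.0 was an alternative. The edgeR, limma and permutation steps were tested on simulated data. Named miRNAs were both arms of the 9 hairpins, a related list, and for each cluster the 3 miRNAs outside it with the highest r. The members and lists were chosen with earlier results of these data known. Positions and sequences are RefSeq and GENCODE vM21, GRCm38.p6. Reads carry no molecular identifiers, so counting error understates the error of low counts.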

Additional observations from a re-analysis of the deposited data

Results flagged for a closer look

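Among 66 groups of 4 hearts tested, in which chance alone would flag about 1 in 20 (3.3 groups), 6 held a heart far from the other hearts of its sex. miR-18a-3p was at 2.07 CPM in male replicate 2, against 0.764 to 0.955 CPM in the other male hearts. miR-92a-1-5p was at 0.441 CPM in male replicate 3, against 0.384 to 0.389 CPM in the other male hearts, all from 11 to 15 counts. The log2 ratio of 5p to 3p counts of mir-17 was 3.30 in female replicate 3, against 4.23 to 4.34 in the other female hearts. It was 3.74 in male replicate 2, against 4.53 to 4.66 in the other male hearts. The ratio of mir-18a was -5.78 in male replicate 4, where the 5p arm was listed at 0, against -1.08 to -0.67 in the other male hearts. The exact-match share of miR-25-3p was 41.4% in male replicate 3, against 50.8% to 52.7% in the other male hearts.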

How the results depend on the processing

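Of 273 alternative values computed for 19 results, 244 were taken as unchanged. For differences between the sexes this means the same direction and side of the threshold. For counts and for median r it means no change or a limited change in size. Members called between the sexes stayed at 0 under all alternatives, over the miRNAs tested in each. The count over all miRNAs, 0, became 1 without a filter, with at least 10 CPM in 4 libraries, with mouse entries only and with exact matches only, and 3 with DESeq2. The count of hairpins called for arm use, 0, became 1 with a mean of at least 100 counts on each arm. The covariation count by r, 0 pairs, became 4 with library size alone and 4 with mouse entries only. The miR-17-92 share, -0.0148 percentage points (female minus male), was 0.00148 without mir-19b-1 and mir-92a-1. The log2 fold change of miR-19b-3p was -0.25 with exact matches only. The median r within miR-106b-25 was 0.784 with library size alone and -0.0134 with exact matches. The cause was not tested.

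With each heart left out in turn, the count over all miRNAs ran from 0 to 2 (2 without female replicate 3). Hairpins called for arm use ran from 0 to 1 (1 without male replicate 2) and covariation by r from 0 to 4 pairs. The difference in the miR-106b-25 share ran from -0.0431 to 0.00318 percentage points and that in the log2 ratio of the clusters from -0.15 to 0.063, both with the positive value without male replicate 2. The difference in the mir-106b arm ratio ran from -0.30 to 0.13 and was positive in 4 of 8 cases. The neighbour pairs that passed ran from 8 to 10 of 13. For the 15 fold changes and arm ratios of members not printed, 43 of 241 alternative values changed sign, 8 of them without male replicate 2, and 0 passed the threshold.

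Nothing in the labels pairs the hearts. The correlation of deviations from the sex means was 0.328, 0.270, 0.203 and -0.00347 for the same-numbered hearts and -0.384 to 0.160 for the 12 other pairs, and 6 of 8 hearts correlated best with their own number, a hint of pairing from the data that did not hold for replicate 4. With the replicate block, 1 miRNA outside the clusters was called, 0 members and 0 hairpins for arm use were called, and the p of the cluster shares was 0.625 for miR-17-92 and 0.875 for miR-106b-25 (exact sign-flip permutation). Depth limits miR-18a-5p and miR-92a-1-5p, with 109 and 116 counts in all.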
